A study of Bos taurus with 15 samples.

Results

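The collagens, the small leucine-rich proteoglycans, and the enzymes and inhibitors that build and dismantle the extracellular matrix were followed in the thymus of cows given prednisolone and of untreated cows. A gene belonged to this set if its name was a collagen chain, LOX or a LOX-like gene, PCOLCE, DCN, LUM, BGN, FMOD, FN1, SPARC, POSTN, ITGA11, FBN1, FBLN1, or a numbered MMP or TIMP. The array held 64 such genes among 14722 distinct gene symbols. Of these, 31 carry such a name in the files themselves and 33 carry a gene number there that stands for one (COL3A1, ITGA11, PCOLCE and FBLN1 are among the latter). They are read by 67 probes with such a name or number, and each gene was taken from the brightest of these. Probes that the files name only by description or accession were kept apart: they read 15 further genes of the same kind and give a second probe for COL7A1, FBN1 and MMP24.

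The samples are thymus tissue of 15 Holstein cows collected at slaughter. The treated group is 8 cows dosed orally with prednisolone, which is a synthetic glucocorticoid, each day over 35 days (30 mg for each head), and the control group is 7 cows labelled as untreated. Each cow's RNA went onto its own 1-colour bovine array, which makes the animal the replicate. Neither age nor the time from the last dose to slaughter is given in the labels.

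Collagens are triple helices. Type I, III and V collagens form the fibrils of connective tissue, type IV the sheet of basement membranes, and small proteoglycans such as decorin coat the fibrils and set their spacing. PCOLCE assists the enzyme that trims procollagen, lysyl oxidases cross-link the fibrils, matrix metalloproteinases cut them, and TIMPs inhibit those proteases. In the thymus this matrix lies in the capsule, in the septa between lobules and around vessels, while the bulk of the organ is thymocytes, and glucocorticoids are known to deplete thymocytes and to restrain collagen synthesis in several tissues.

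Values are log2 signals minus the 75th percentile of the bovine spots of the same array, here called centred signals. A difference is always prednisolone minus control on this log2 scale. A gene was tested when its probe was well above background, by the scanner's own call, on at least 7 of the 15 arrays. That left 47 of the 64 genes, 39 of them above background on all 15 arrays. Levels of different genes are not set against each other, because each is read by another probe.

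The arrays lay on 4 slides. Slide 1 held controls 1, 2 and 5 with prednisolone animal 6, slide 2 held control 3 with prednisolone animals 3, 5 and 8, slide 3 held controls 4, 6 and 7 with prednisolone animal 1, and slide 4 held prednisolone animals 2, 4 and 7 only. The share of bovine spots well above background was 67.1% to 77.8% per array. Spots marked as outliers by the scanner made up 1.95% to 2.44% on the arrays of slide 4 and at most 0.0395% elsewhere. The 8 thymocyte markers on the array were all measured, with a mean centred signal between 2.07 and 2.40 in controls and between 2.19 and 2.50 in treated cows.

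No matrix gene rose or fell with prednisolone at the threshold used (limma, Benjamini-Hochberg adjusted p under 0.05 over 16069 probes). The count was 0 of 47, against 0% of all probes. With p left unadjusted, 3 of the 47 were under 0.05, where 7.08% of all probes reached it. These were ITGA11, a collagen-binding integrin subunit, on the lower side (3.1% of all probes), and PCOLCE and the matrix glycoprotein FBLN1 on the higher side (3.98% of all probes). The treated and control animals overlapped in all 47 genes (0 without overlap), where 0.118% of all probes had no overlap. Differences ranged from -0.65 to 0.43, and 30 genes were on the higher and 17 on the lower side, with a median of 0.098 (all probes: 49.9% higher, median -0.00044). The count and the upper end include genes dim in most controls. COL13A1, at 0.43, and FBN1 were above background on 3 of 7 control and 7 of 8 treated arrays, so they entered the test through the treated group. Of the 39 genes above background on all 15 arrays, 23 were higher and 16 lower, with a median of 0.089.

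Prednisolone animal 8 had the highest value of all 15 animals in 10 of the 47 genes, prednisolone animal 5 in 8 and prednisolone animal 1 in 7. Control 5 and prednisolone animal 2 held the lowest value in 10 and 9 genes. The same counts over all probes are not given here, so these cannot be called particular to the matrix genes. Without prednisolone animal 8 the median was 0.028 and 26 genes were higher, and without prednisolone animal 5 it was 0.06 and 27 genes were higher. Without prednisolone animals 1 and 8 together, 24 genes were higher and 23 lower, with a median of 0.012. That pair was picked after its high values were seen, so a lower count follows from the choice and is no test. Within slides 1, 2 and 3 the median was 0.13, 0.0091 and 0.066, each resting on a single animal in one of its groups.

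Among treated cows, adipocyte markers were highest in prednisolone animals 1 and 8. The mean of the 10 measured adipocyte markers, of 12 listed, was -0.29 in prednisolone animal 1 and -0.69 in animal 8. It was -2.55 to -1.63 in the other treated cows and -2.55 to -1.0 in controls. Prednisolone animal 5, with more highest matrix values than animal 1, had an adipocyte mean of -1.72. The mean of all measured matrix genes was -2.18 in prednisolone animal 8, -2.2 in animal 5, -2.28 in control 3 and -2.4 in prednisolone animal 1. ADIPOQ and LEP did not pass the filter. The mean of 9 smooth muscle and pericyte markers was highest in prednisolone animal 8, at -0.82, against -2.03 to -1.28 in controls and -1.72 to -1.29 in the other treated cows. The part of either cell type in the matrix values was not tested, and in whole tissue fewer cells of a type and less RNA per cell cannot be told apart.

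**Figure D1:**
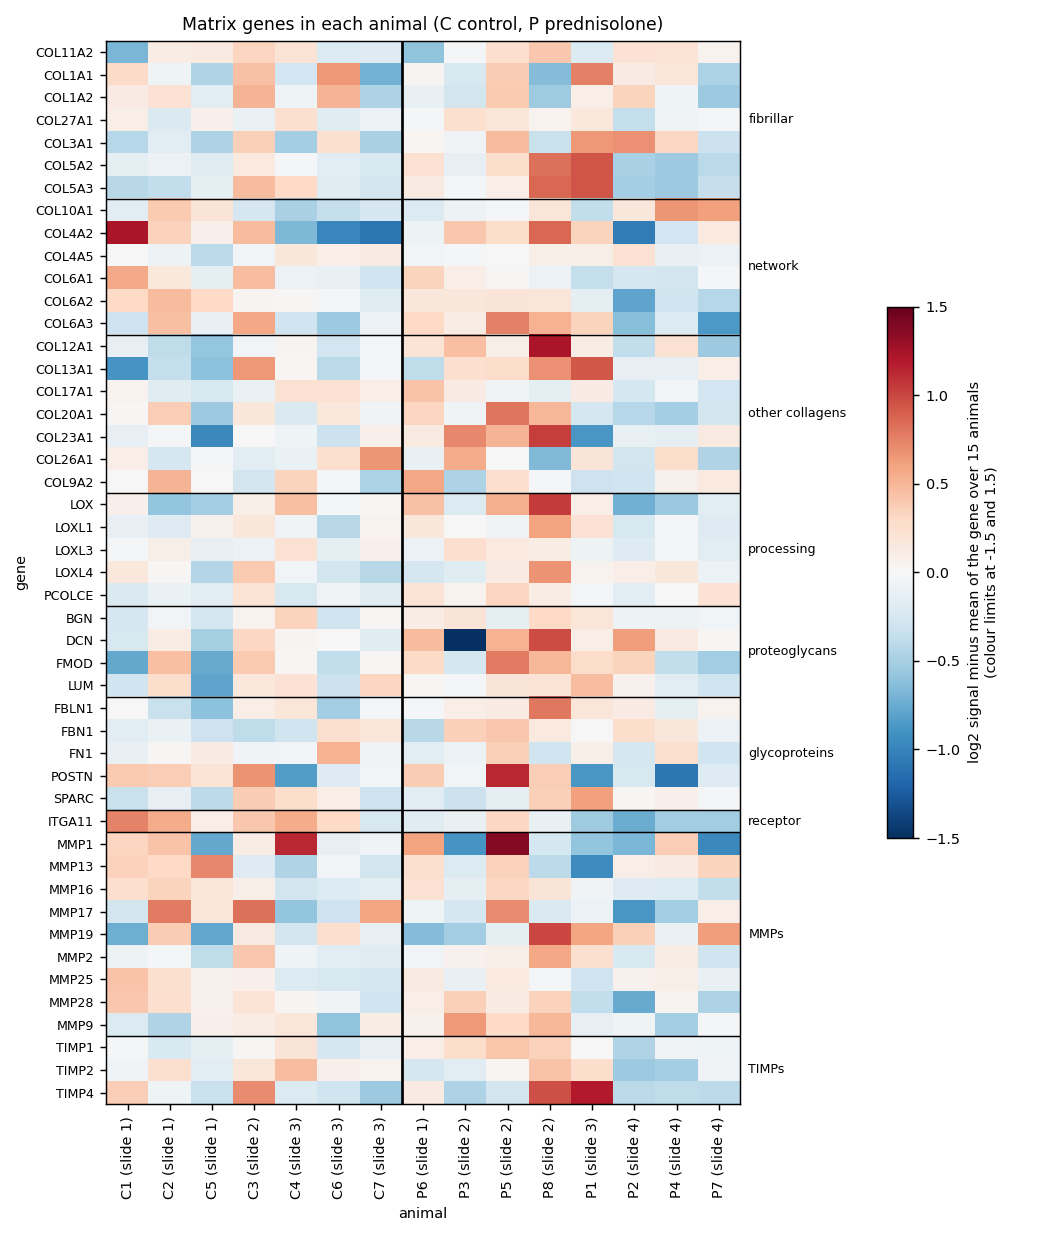
Centred log2 signal of the 47 measured matrix genes (rows, grouped by role) in 15 cows (columns, C control and P prednisolone, ordered by slide), each minus the mean of its gene. Red marks a value above and blue a value below that mean, and the columns of prednisolone animals 5 and 8 hold the highest value of 8 and 10 genes.

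Among the fibrillar collagens, which make up the tensile fibres of connective tissue, 6 of 7 measured genes were on the higher side, and none passed the test. COL3A1, the reticular fibre collagen, had centred signals from -2.02 to -1.15 in controls (median -1.94) and from -1.84 to -0.83 in treated cows (median -1.34). The groups overlapped: controls 3 and 6 lay as high as treated cows, and prednisolone animals 7 and 8 as low as controls. The difference was 0.39 ± 0.19 SE (limma adjusted p = 0.704), and within slides 1, 2 and 3 it was 0.38, -0.33 and 0.90.

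COL1A1 and COL1A2 encode the chains of type I collagen, the main collagen of most connective tissue. COL1A1 ran from -1.63 to -0.28 in controls and from -1.58 to -0.16 in treated cows, a difference of 0.035 ± 0.23. COL1A2 ran from -3.27 to -2.30 and from -3.36 to -2.42, a difference of -0.18 ± 0.18. The SD within controls and treated cows was 0.497 and 0.459 for COL1A1 and 0.357 and 0.356 for COL1A2, wider than either difference. A second COL1A2 probe was above background on 0 arrays.

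COL5A2, a type V chain that sits in type I fibrils, was tight in controls, from -4.39 to -4.01, and wide in treated cows, from -4.70 to -3.22. The SD was 0.128 over 7 controls and 0.579 over 8 treated cows. The high values came from prednisolone animal 1 (-3.22) and animal 8 (-3.33), and the low ones from the 3 cows of slide 4 (-4.70 to -4.57). COL5A3, another type V chain, was likewise highest in prednisolone animals 1 and 8 (-2.73 and -2.82) and lowest in 2 cows of slide 4 (-4.22 and -4.18). Because slide 4 holds treated cows only, the COL5A2 difference depended on whether slide was a block. It was 0.18 ± 0.21 without a block and 0.54 ± 0.18 with slide as a block (limma unadjusted p = 0.0107, adjusted p = 0.364). Without prednisolone animals 1 and 8 the difference was -0.081. These cows held its highest values, so a lower difference follows from leaving them out and is no test. With the block, COL5A2 and ITGA11 were the genes under an unadjusted p of 0.05, 2 of 47 where 9.57% of all probes were. The remaining fibrillar genes, COL11A2 and COL27A1, differed by 0.081 and 0.048.

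Of 6 measured network collagens, which form basement membranes, beaded filaments and the matrix of growing cartilage, 4 were on the higher side. COL4A2, a chain of the basement membrane network, had one of the widest ranges of all matrix genes: controls ran from -6.91 to -4.60 and treated cows from -6.87 to -4.95. Control 1 was the highest animal, and controls 6 and 7 with prednisolone animal 2 were the lowest. The difference was 0.16 ± 0.35 (limma adjusted p = 0.95), and within slides 1, 2 and 3 it was -0.63, 0.037 and 1.24. COL4A2 was above background on 5 of 7 control and 7 of 8 treated arrays.

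Type VI collagen is a beaded filament that links cells to the fibrils, and its 3 chains differed in sign without passing. COL6A2 ran from -3.30 to -2.64 in controls and from -3.91 to -2.92 in treated cows, with a difference of -0.25 ± 0.16. Its 3 lowest animals were those of slide 4 (-3.91, -3.54 and -3.42), and with slide as a block the difference was -0.037 ± 0.10. COL6A1 differed by -0.15 ± 0.14 (controls -2.34 to -1.48, treated cows -2.40 to -1.71) and COL6A3 by 0.089 ± 0.24 (controls -4.26 to -3.13, treated cows -4.56 to -2.95). COL10A1, the collagen of hypertrophic cartilage, ran from -5.83 to -4.96 in controls and from -5.72 to -4.68 in treated cows. Its highest values lay in 2 cows of slide 4 (-4.68 and -4.73), and its difference of 0.25 ± 0.17 was -0.026 ± 0.15 with slide as a block.

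Among the fibril-associated and transmembrane collagens 4 of 7 were on the higher side, and 7 of 7 with slide as a block. None passed. COL12A1, which sits on the surface of type I fibrils, ran from -3.51 to -2.89 in controls and from -3.48 to -1.70 in treated cows. Prednisolone animal 8 stood above all others at -1.70, with the next animal at -2.48. The difference was 0.38 ± 0.21 (limma adjusted p = 0.737), and within slides 1, 2 and 3 it was 0.57, 0.64 and 0.20.

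COL13A1, a transmembrane collagen at sites of cell attachment, ran from -6.47 to -4.93 in controls and from -5.96 to -4.65 in treated cows. It differed by 0.43 ± 0.23 (limma adjusted p = 0.732), the widest difference on the higher side among the 47, but was above background on 3 of 7 control and 7 of 8 treated arrays. Most of its control values were thus not above background, and it entered the test through the treated group. COL23A1, also transmembrane, ran from -5.79 to -4.74 and from -5.70 to -3.78. Its 3 highest animals were the treated cows of slide 2 (-3.78, -4.10 and -4.31), while prednisolone animal 1 was nearly the lowest of all. The difference was 0.38 ± 0.24, and within slides 1, 2 and 3 it was 0.51, 0.75 and -0.77. The other 4, COL9A2, COL17A1, COL20A1 and COL26A1, differed by -0.13 to 0.027.

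Of the 5 genes of collagen processing and cross-linking, 4 were on the higher side. PCOLCE had a range of 0.55 log2 units over all 15 animals. Controls lay between -2.35 and -1.91 (median -2.27) and treated cows between -2.28 and -1.79 (median -2.03). Outside control 3, at -1.91, all controls were at or below -2.16, and 7 of 8 treated cows were at or above -2.13. The difference was 0.20 ± 0.085 (limma unadjusted p = 0.0337, adjusted p = 0.69), and 0.16 ± 0.10 with slide as a block. Within slide 2, where control 3 lies, it was -0.041, against 0.37 and 0.14 within slides 1 and 3. With normexp background correction, which moved the median of all probes to -0.21, it was -0.10.

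The lysyl oxidases cross-link collagen and elastin. LOX ran from -4.44 to -3.40 in controls and from -4.57 to -2.80 in treated cows, a difference of 0.13 ± 0.24 with prednisolone animal 8 highest. LOXL1 ran from -4.80 to -4.21 and from -4.63 to -3.78, a difference of 0.13 ± 0.12. LOXL4 ran from -4.11 to -3.28 and from -3.92 to -3.00, a difference of 0.16 ± 0.15 that became -0.015 ± 0.18 with slide as a block. Prednisolone animal 8 was the highest cow for all 3 of these genes. LOXL3 differed by -0.0075.

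The 4 small proteoglycans were all on the higher side, by 0.12 to 0.27, without passing. FMOD, fibromodulin, ran from -3.99 to -2.78 in controls and from -3.75 to -2.44 in treated cows (0.27 ± 0.23, limma adjusted p = 0.845). BGN, biglycan, ran from 0.71 to 1.34 and from 0.86 to 1.30 (0.12 ± 0.10). LUM, lumican, ran from -1.82 to -0.71 and from -1.33 to -0.57 (0.12 ± 0.16). Control 5 was the lowest cow for LUM, and controls 1 and 5 were the lowest for FMOD.

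DCN, decorin, had the widest range of the 47 genes, 3.35 log2 units, and a single animal made it. Controls ran from -0.17 to 0.64. Of the treated cows 7 lay between 0.35 and 1.31, and prednisolone animal 3 lay at -2.04. A second DCN probe read that animal at -1.56, inside the -2.37 to -1.20 of the treated group, so that the probes disagreed there. The brightest probe gave a difference of 0.13 ± 0.38, and 0.47 without prednisolone animal 3. The second probe gave 0.22 ± 0.17 (limma adjusted p = 0.821), and -0.056 with slide as a block.

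Of the 5 glycoproteins and elastic fibre genes, 3 were on the higher side. FBLN1, fibulin-1, which binds fibronectin and elastic fibres, ran from -1.66 to -0.87 in controls (median -1.08) and from -1.20 to -0.26 in treated cows (median -0.94). The 3 lowest animals were controls 2, 5 and 6, and the highest was prednisolone animal 8, with the rest of both groups mixed between -1.20 and -0.87. The difference was 0.32 ± 0.15 (limma unadjusted p = 0.0464, adjusted p = 0.70). It was 0.28, 0.24 and 0.30 within slides 1, 2 and 3, and between 0.23 and 0.38 with any 1 animal left out.

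FBN1, the fibrillin of microfibrils, ran from -5.88 to -5.26 in controls and from -5.92 to -5.10 in treated cows (0.22 ± 0.13). It was above background on 3 of 7 control and 7 of 8 treated arrays, so it too entered the test through the treated group. FN1, fibronectin, ran from 2.72 to 3.35 and from 2.53 to 3.19 (-0.11 ± 0.12). POSTN, periostin, spread over 2.21 log2 units, from -5.33 to -3.82 in controls and from -5.57 to -3.36 in treated cows (-0.15 ± 0.30). Its lowest animals were prednisolone animals 1 and 4 and control 4, and the difference was 0.11 without slide 4. SPARC, a collagen-binding protein, ran from 1.87 to 2.64 and from 1.94 to 2.87 (0.11 ± 0.15), with prednisolone animal 1 highest.

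ITGA11, the integrin subunit with which fibroblasts grip fibrillar collagen, had the smallest p-value of the 47. Controls lay at -5.14, -4.81, -4.61, -4.50, -4.35, -4.35 and -4.16, and treated cows at -5.65, -5.44, -5.43, -5.43, -5.09, -5.02, -5.02 and -4.60. The groups overlapped through control 7, the lowest control, and prednisolone animal 5, the highest treated cow, and 6 of 7 controls lay above 7 of 8 treated cows. The means were -4.56 ± 0.329 (SD, n = 7) and -5.21 ± 0.339 (SD, n = 8), a 1.57-fold lower signal in treated cows. The difference of -0.65 ± 0.17 did not pass the test (limma unadjusted p = 0.00132, adjusted p = 0.425). Blocking by slide gave -0.59 ± 0.17 (limma adjusted p = 0.306), and the values were -0.65, -0.38 and -0.74 within slides 1, 2 and 3. Over every alternative tried with a test it stayed between -0.91 and -0.39, with limma adjusted p from 0.201 to 0.808. The gene was above background on all 15 arrays. Of the 8 fibroblast markers 7 were on the higher side, with a median of 0.22, and 0 passed. Their median was 0.13 when slide was a block. The part of fibroblasts in the ITGA11 difference was not tested.

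**Figure D2:**
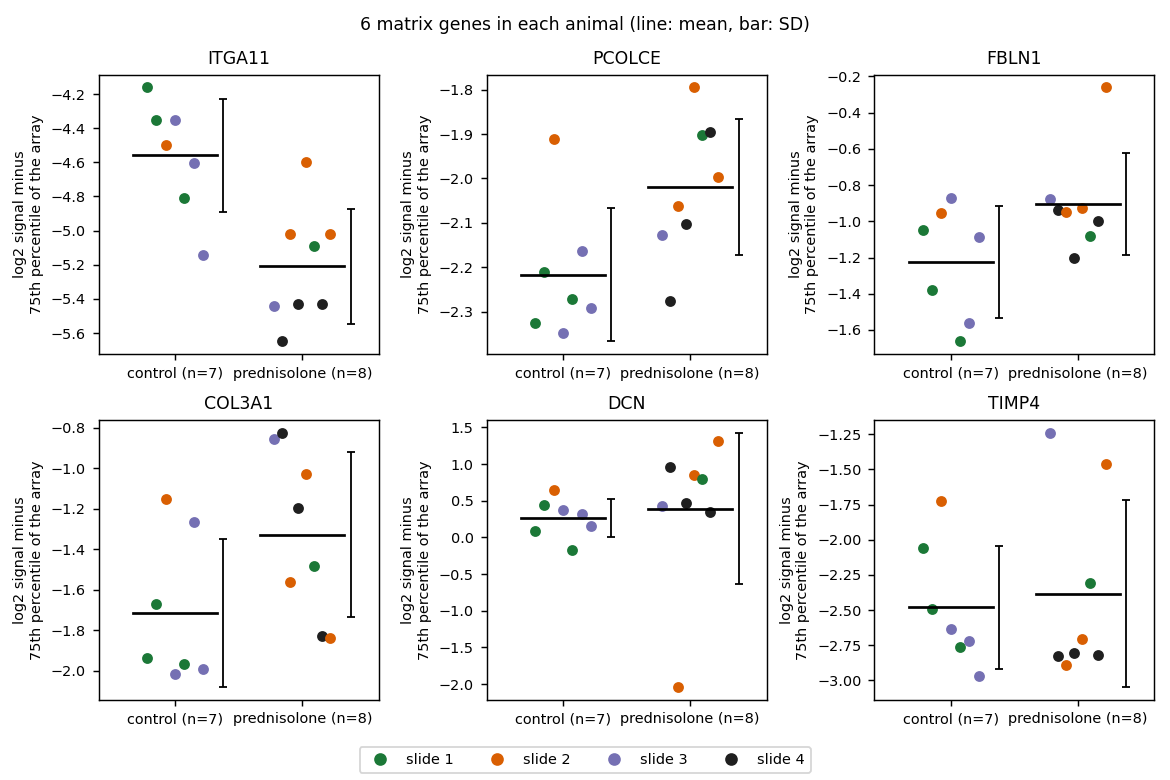
Centred log2 signal of ITGA11, PCOLCE, FBLN1, COL3A1, DCN and TIMP4 in 7 control and 8 prednisolone cows (each point 1 cow, coloured by slide, line the mean and bar the SD). The groups overlap in all 6 genes, and the lone low DCN point at -2.04 is prednisolone animal 3.

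Matrix metalloproteinases are the enzymes that cut collagens and other matrix proteins, and 3 of 9 measured ones were on the higher side. MMP1, the interstitial collagenase, was among the most variable of all matrix genes. Controls ran from -2.98 to -1.07 (median -2.10) and treated cows from -3.18 to -0.83 (median -2.64). The highest cow was treated (prednisolone animal 5) and the next was control 4, and the difference was -0.28 ± 0.35 (limma adjusted p = 0.912).

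MMP17, a membrane-anchored protease, ran from -4.92 to -3.49 in controls and from -5.19 to -3.61 in treated cows (-0.32 ± 0.25). MMP19 ran from -5.77 to -4.62 and from -5.65 to -3.99 (0.31 ± 0.26). MMP9, a gelatinase also made by neutrophils and macrophages, ran from -1.82 to -1.03 and from -1.71 to -0.57 (0.21 ± 0.17). The 3 highest cows for MMP9 were the treated cows of slide 2.

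MMP2, the gelatinase of fibroblasts, was read by 2 probes of opposite sign. The brighter one ran from -2.91 to -2.12 in controls and from -2.83 to -1.95 in treated cows (0.13 ± 0.13), and the other gave -0.19 ± 0.16. MMP13, MMP16, MMP25 and MMP28 differed by -0.16 to -0.032. The probe named for MMP16 carries a description of another gene, RBPSUH, so its identity is uncertain.

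The TIMPs, which block these proteases, did not pass either. TIMP2 ran from 1.20 to 1.83 in controls and from 0.83 to 1.80 in treated cows (-0.21 ± 0.14), with prednisolone animals 2 and 4 of slide 4 lowest. TIMP1 ran from -0.57 to -0.12 and from -0.77 to 0.10 (0.15 ± 0.12), with the treated cows of slide 2 highest. TIMP4 ran from -2.97 to -1.72 and from -2.89 to -1.24 (0.098 ± 0.28). Its 3 highest cows were prednisolone animal 1 (-1.24), prednisolone animal 8 (-1.46) and control 3 (-1.72). These were also the 3 cows with the highest mean of adipocyte markers (-0.29, -0.69 and -1.0), which was noticed in the values and was not tested. Without prednisolone animals 1 and 8 the TIMP4 difference was -0.25. As they held its highest values, a lower difference follows from leaving them out and is no test.

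**Figure D3:**
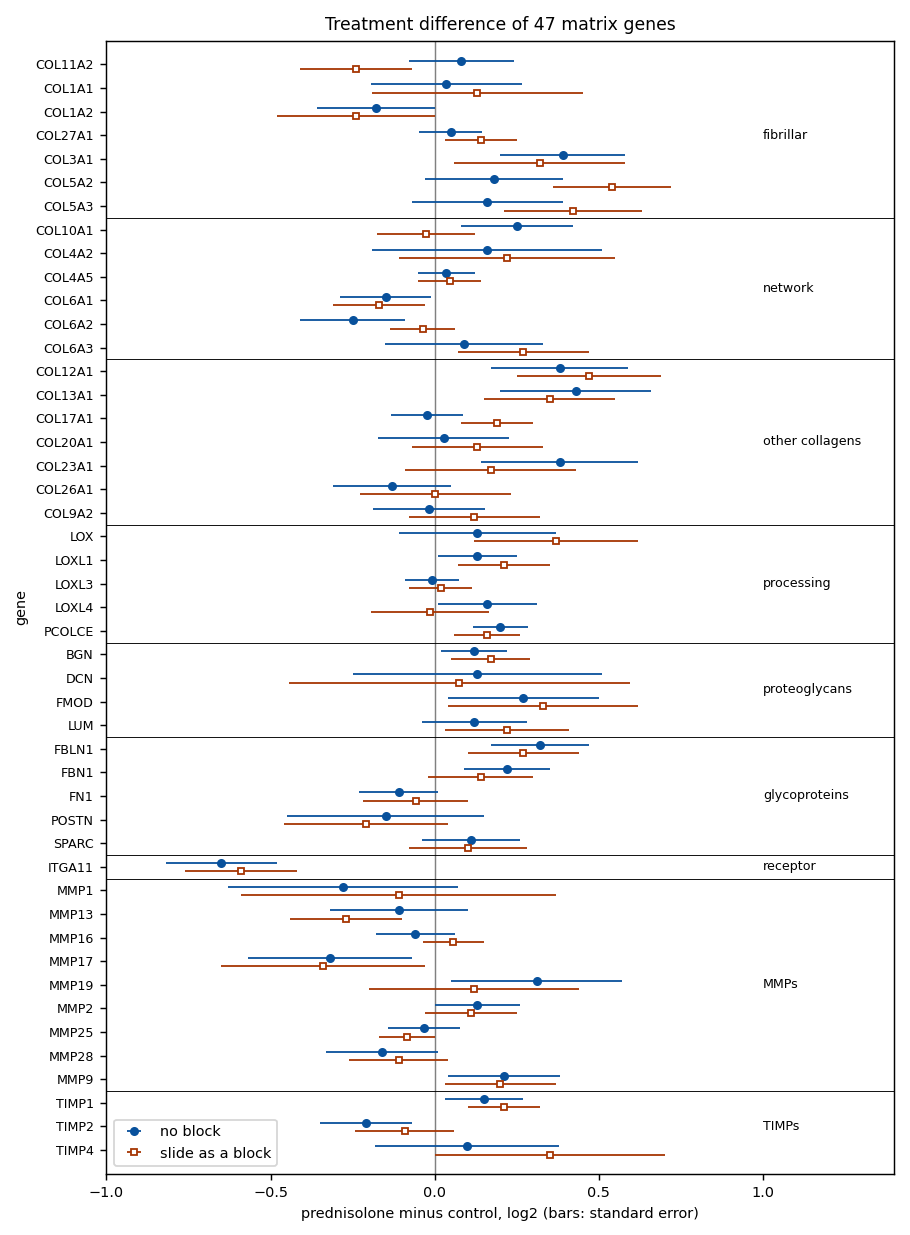
Difference between prednisolone and control cows (log2, horizontal axis) for 47 matrix genes by role, without a block (filled circles) and with slide as a block (open squares), with bars of 1 standard error. ITGA11 lies farthest from 0, at -0.65 and -0.59, and no other gene lies as far as -0.59 from 0 in either fit.

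The remaining 17 of the 64 genes were too dim to test by the probes used here. 14 of them were above background on 1 to 6 arrays and 3 (COL4A3, COL4A4 and MMP20) on none. They gave 37 detections in all, 32 in treated and 5 in control cows, and 19 of the 37 lay on the 3 arrays of slide 4. The same split over all dim probes is not given here, so it cannot be called particular to these genes. Slide 4 also held the arrays with the largest share of spots above background, so treatment and slide cannot be told apart there. COL24A1, a minor fibrillar collagen, and COL4A1, the partner chain of COL4A2, were above background only on those 3 arrays. For COL24A1 those 3 arrays read -6.15 to -6.10, while prednisolone animals 5, 6 and 8 read higher, at -5.89, -5.92 and -5.29, without being called above background. No fold is given for genes this dim, because most of their values were not above background.

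MMP14, the membrane protease that activates MMP2, was above background on 0 of 7 control and 6 of 8 treated arrays, 3 of them on slide 2 and 3 on slide 4. Control 3, also on slide 2, was not. Its treated mean (-6.63) and control mean (-6.72) lay close together. MMP12 and MMP24 were each above background on 0 control and 4 treated arrays, among them all 3 arrays of slide 4. COL7A1, the anchoring fibril collagen, was above background on 0 control and 4 treated arrays by the probe used here. A COL7A1 probe named only by description was above background on all 15 arrays, with a mean of 0.29 ± 0.156 in controls (SD, n = 7) and 0.21 ± 0.177 in treated cows (SD, n = 8), a difference of -0.084 ± 0.091 (limma adjusted p = 0.888), so COL7A1 itself was not dim. COL8A2, COL25A1, MMP3 and MMP27 were above background on 1 treated and 0 control arrays. The reverse held for COL8A1, COL21A1 and MMP7, on 1 control and 0 treated arrays.

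Several matrix genes differed between slides, though in no larger share than among all probes. In a model with treatment and slide, 12 of 47 matrix genes (25.5%) differed between slides, against 30.6% of all probes (limma F test, adjusted p under 0.05). They were COL5A2, COL5A3, COL6A2, COL6A3, COL10A1, COL13A1, POSTN, MMP13, MMP16, MMP25, MMP28 and TIMP1. COL6A2 had the smallest p-value, with slide means of -2.81, -2.97, -3.20 and -3.62 on slides 1 to 4 (limma adjusted p = 0.00218). MMP16 followed with 3.03, 2.89, 2.61 and 2.52 (limma adjusted p = 0.0065). Slide 2 had the highest mean in 27 of 47 matrix genes (57.4%, against 27.8% of all probes), and slide 4 the lowest in 26 (55.3%, against 36.7%). Animals and slides cannot be told apart in these differences and counts, since each animal was on 1 slide. The counts of highest and lowest means are also not adjusted for treatment, and slide 4 holds treated cows only.

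Partner genes were compared across the 15 cows to see which of them varied together. Of 15 pairs of known partners 13 could be computed, and 3 passed (two-sided permutation tests of 100000 resamples, Benjamini-Hochberg over the 13). The chains of type I collagen, COL1A1 and COL1A2, had Pearson r = 0.84 (permutation p = 0.0002, adjusted p = 0.0026) and Spearman rho = 0.84 (permutation p = 0.00027, adjusted p = 0.00351). With the slide means subtracted and resampling kept within slides r was 0.84 (permutation adjusted p = 0.0179), and without the 2 cows farthest from the COL1A1 median, control 7 and prednisolone animal 1, it was 0.89 (permutation adjusted p = 0.00143). Cows high in one chain were high in the other.

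COL1A1 and COL3A1, which are often made by the same fibroblasts, had r = 0.77 (permutation p = 0.00112, adjusted p = 0.00728) and rho = 0.74 (permutation p = 0.00202, adjusted p = 0.0131), with r = 0.86 after subtracting slide means (permutation adjusted p = 0.0253). Without the same 2 cows r was 0.67 and no longer passed (permutation adjusted p = 0.0903). MMP9 and its inhibitor TIMP1 had r = 0.70 (permutation p = 0.00389, adjusted p = 0.0169) and rho = 0.71 (permutation p = 0.00407, adjusted p = 0.0176). After subtracting slide means r was 0.40 and no longer passed (permutation adjusted p = 0.502). Without control 6 and prednisolone animal 3, and with slide means left in, r was 0.62 (permutation adjusted p = 0.101).

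The other 10 pairs did not pass, with r from -0.094 (COL1A1 and LOX) to 0.54 (COL6A1 and COL6A2). COL6A1 and COL6A2, neighbouring genes whose products join in 1 fibre, had r = -0.081 after subtracting slide means (permutation adjusted p = 0.759). DCN and LUM, which also neighbour each other, had r = 0.27 (permutation adjusted p = 0.571), and 0.38 after subtracting slide means (permutation adjusted p = 0.0276). Without prednisolone animals 3 and 8, and with slide means left in, r was 0.52 (permutation adjusted p = 0.181). Prednisolone animal 3 held the DCN value of -2.04 that a second probe did not show. No r with slide means subtracted was computed without that cow. COL3A1 and COL5A2 had r = 0.16, COL1A1 and SPARC 0.38, COL1A1 and PCOLCE 0.16, COL1A1 and ITGA11 0.13, and MMP2 and TIMP2 0.45. A slide holds at most 4 cows, too few for a correlation within 1 slide. COL4A1 with COL4A2 and MMP14 with TIMP2 were left out because COL4A1 and MMP14 were too dim.

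**Figure D4:**
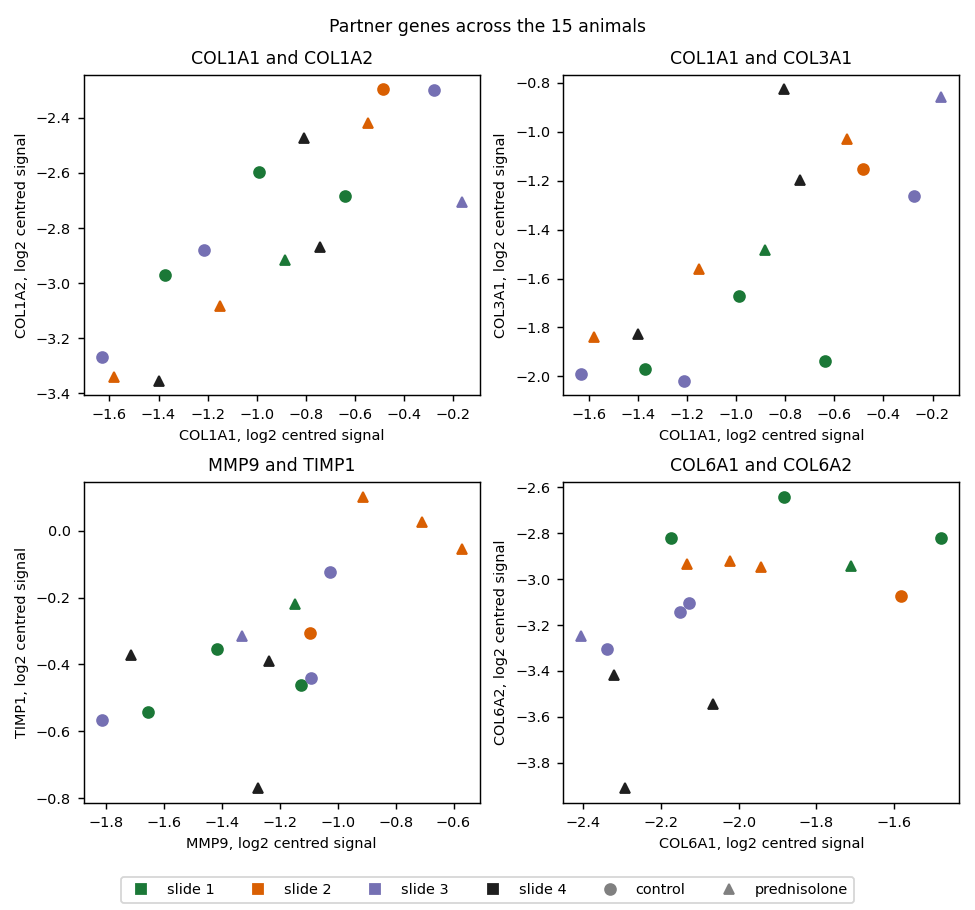
Centred log2 signals of 4 partner pairs in 15 cows (circles control, triangles prednisolone, coloured by slide). COL1A1 rises with COL1A2 (r = 0.84) and COL3A1 (r = 0.77), while COL6A1 and COL6A2 (r = 0.54) lose their relation once slide means are subtracted (r = -0.081).

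Other genes of the pathway were counted beside these. Of the enzymes that fold and modify procollagen, 8 of 14 were on the higher side with a median of 0.030, and 0 passed. FKBP10, a chaperone of collagen folding, ran from -2.45 to -1.83 in controls and from -2.79 to -2.24 in treated cows (-0.27 ± 0.10, limma adjusted p = 0.655), and ADAMTS14, a procollagen peptidase, differed by -0.27 ± 0.15. Of other structural matrix genes 13 of 21 were on the higher side (median 0.080, 0 passed), with LAMC1, a laminin chain, at 0.40 ± 0.18 and TNC, tenascin-C, at -0.32 ± 0.14.

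Collagen receptors and TGF-beta signalling genes had 11 of 17 on the higher side (median 0.042, 0 passed). DDR2, a receptor kinase for fibrillar collagen, differed by 0.49 ± 0.17 (limma adjusted p = 0.655; controls -6.59 to -5.59, treated cows -6.10 to -5.19). It was above background on 1 of 7 control and 8 of 8 treated arrays, so that most control values were not above background and the gene entered the test through the treated group. TGFBR1, a TGF-beta receptor, differed by 0.36 ± 0.17, and by -0.024 with slide as a block. Of the plasmin, cathepsin and ADAMTS proteases 5 of 12 were on the higher side (median -0.034, 0 passed), with CTSS, a cathepsin of antigen-presenting cells, at -0.12 ± 0.098 and ADAMTS4, an aggrecanase, at 0.20 ± 0.19.

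Markers of other cells were counted as well, with 0 genes passing in any list and their part in the matrix values not tested. Adipocyte markers were on the higher side in 8 of 10 (median 0.25), smooth muscle and pericyte markers in 8 of 9 (0.17), skeletal muscle markers in 6 of 7 (0.16) and thymocyte markers in 6 of 8 (0.082). Macrophage markers were on the lower side in 11 of 11 (-0.25), erythroid markers in 6 of 6 (-0.36), neutrophil markers in 6 of 7 (-0.14), cartilage and bone markers in 5 of 6 (-0.23) and endothelial markers in 6 of 8 (-0.05). Thymic epithelial markers were mixed (5 of 9 higher, median 0.0022). With slide as a block the skeletal muscle, endothelial and erythroid medians changed sign, to -0.26, 0.051 and 0.03.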

How the data were processed

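Per the file headers, the deposited scanner files give spot intensity from Feature Extraction, release 9.5.1.1. The processed signal is background-subtracted and detrended, per the labels. A second deposited table holds the authors' intensity values, with column medians from 188.5 to 274.1, and its centring is unknown. It ranked spots nearly as the scanner signal did (Spearman rho at least 0.99963 per array). The ratio of its values to the scanner signal ran from 0.521 to 2.05. R 2.11.1 is named in the submitters' processing notes. Flags for background, saturation and outliers are the scanner software's, per the file headers. Groups follow each sample's treatment label (the protocol field names prednisolone for every sample), and replicate numbers only follow the order of samples. P-values measure the spread between animals. The main fit held no slide term and took the animals as independent. Its p-values and standard errors therefore also hold spread between slides. The estimated correlation between animals of the same slide was 0.373.

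Log2 processed signals were centred on each array's 75th percentile of bovine spots, outlier spots were left out, and the spots of a probe were averaged. A probe counted as above background where at least 0.5 of its spots did, and 16069 of 21475 probes were above it on at least 7 arrays. The fit used R 4.3.3 with limma 3.58.1 (beside it statmod 1.5.0, and data.table in release 1.17.8) and Benjamini-Hochberg adjustment, and the calculation was tested on simulated data. Probes whose name in the files was a gene number were named through RefSeq's list of cattle genes (assembly ARS-UCD2.0, used for names and neighbours only).

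Genes named are those with an unadjusted p under 0.05, the 3 smallest p-values of each role, the 4 widest ranges, genes dim in a whole group, genes with probes of opposite sign, pair members, and the 2 smallest p-values of each pathway list. Others appear by range, or were named after their values were seen (COL5A3, COL11A2, COL27A1 and the other members given in 1 clause). The members, lists and pairs were chosen with earlier results of these data known. Alternatives were normexp background correction (offset 50), median centring, quantile normalization, the authors' values, other filters, slide as a block, slide 4 left out, array weights, trend and robust eBayes, averaged probes, and each animal left out. Leaving out prednisolone animals 1 and 8, normexp leaving out 12 spots whose local background exceeded 200, and 3 other sets of members were added after the data were seen. All arrays were scanned on 1 day.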

Additional observations from a re-analysis of the deposited data

Results flagged for a closer look

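In 6 of 94 groups of animals (47 genes, 2 treatment groups) the highest or lowest animal stood apart from the rest of its group by Dixon's test. That is 6.38% of groups, against 5.89% over all probes, and chance flags about 1 in 20. Decorin (DCN) was -2.04 in prednisolone animal 3, where the next treated cow lay at 0.35 and a second DCN probe did not show the drop. FBLN1 was -0.26 in prednisolone animal 8, with the next at -0.87, and LOXL4 was -3.00 in the same animal, with the next at -3.50. PCOLCE was -1.91 in control 3, with the next control at -2.16. FN1 was 3.35 in control 6, with the next at 2.96. COL23A1 was -5.79 in control 5, with the next at -5.15.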

How the results depend on the processing

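The count of 0 matrix genes passing held under every alternative fitted with limma. Where all members were counted, 1 to 9 genes had a limma unadjusted p under 0.05. The 9 came without slide 4, where 1465 of 16069 probes were under 0.05. In that fit 35 matrix genes were higher and 12 lower (median 0.15), and 8898 of 16069 probes were higher (median 0.021). Leaving out any 1 animal gave 26 to 33 genes on the higher side and medians from 0.028 to 0.16. No paired analysis was possible because the replicate numbers follow accession order and pair nothing. Normexp background correction turned the balance, to 10 of 47 genes higher with a median of -0.39. Among all probes 4967 of 16069 were higher in that fit, with a median of -0.21. Without the 12 spots of high local background normexp gave 16 of 47 genes higher (median -0.073), against 5475 of 16069 probes (median -0.061). The pairs that passed fell from 3 to 1 without the 2 farthest cows. Taking only the members named in the files left 24 genes, 16 of them higher and 0 at an unadjusted p under 0.05, since ITGA11, PCOLCE and FBLN1 carry gene numbers. Adding the further genes named only by description or accession gave 59 genes, 40 of them higher. The second COL7A1 probe, at -0.084, was not counted there. Of the 39 genes above background on all arrays, 23 were higher and 16 lower, with a median of 0.089.

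Some single differences changed sign. With normexp they were PCOLCE -0.10, LOXL4 -0.39, LOXL1 -0.56, FBN1 -0.72, FN1 0.022, COL5A2 -0.59, COL13A1 -0.66, COL12A1 -0.13, COL23A1 -0.56, COL10A1 -0.71, TIMP4 -0.14, MMP19 -0.64, FMOD -0.32, LUM -0.0036, COL4A2 -0.74 and MMP2 -0.20. Without the 12 spots they were LOXL1 -0.055, FBN1 -0.082, COL5A2 -0.11, COL13A1 -0.076, COL10A1 -0.095, MMP19 -0.057 and COL4A2 -0.17. With slide as a fixed block LOXL4 was -0.015 and COL10A1 -0.026. Without slide 4 POSTN was 0.11. Without prednisolone animals 1 and 8 COL5A2 was -0.081, TIMP4 -0.25, DCN -0.034 and COL4A2 -0.0091. That pair was picked after its high values were seen, so these values are no test. Array weights gave TIMP4 -0.016 and DCN -0.14, and averaging probes gave MMP2 -0.028. Leaving out 1 animal gave COL4A2 from -0.0025 to 0.38, TIMP4 from -0.065 to 0.22 and DCN from -0.0056 to 0.47.

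Within slide 1 the signs that changed were LOXL4 -0.16, FBN1 -0.23, COL10A1 -0.34, COL6A1 0.13, MMP19 -0.28, MMP1 0.62, COL4A2 -0.63 and POSTN 0.058. Within slide 2 they were PCOLCE -0.041, LOXL4 -0.19, FN1 0.038, COL3A1 -0.33, COL13A1 -0.25, COL6A2 0.14, TIMP4 -0.63, MMP19 -0.019, FMOD -0.058, LUM -0.037, DCN -0.60 and MMP2 -0.17. Within slide 3 they were FBN1 -0.038, COL1A2 0.11, COL23A1 -0.77, COL10A1 -0.010, TIMP2 0.066, MMP17 0.022 and MMP9 -0.021. Subtracting slide means turned r to -0.081 for COL6A1 and COL6A2, -0.35 for COL6A1 and COL6A3 and -0.21 for FBN1 and FBLN1. The cause of these changes was not tested. COL13A1, FBN1 and MMP13 were above background on 10 of 15 arrays and COL4A2 on 12, and the 17 untested genes on at most 6 by the probes used.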
